A study of Mus musculus with 48 samples.

Results

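The Hedgehog genes described here are Dhh, Ihh and Shh, which encode the 3 secreted ligands, Ptch1 and Smo, which encode the receptor and the signal transducer, Gli1, Gli2 and Gli3, which encode the transcription factors of the pathway, and Hhip, which encodes a ligand-binding antagonist. Members were taken by gene symbol from a stage count table and an FPKM table and by Ensembl identifier from a single-cell table. No cut on a measured value was applied, but the members were chosen with earlier results of these data known. All 9 were listed among the 22173 genes of the stage table and among the 32285 genes of the single-cell table, and 7 of them (all but Shh and Hhip) among the 13682 genes of the FPKM table. The libraries came from C57BL/6 mice or from mouse embryonic stem cells (ESCs), and the study asked which culture turns ESCs into cells resembling the somatic cells of the fetal ovary, termed gonadal somatic cell-like cells (GSCLCs).

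The stage table held 2 libraries each of somatic cells from untreated mice at the embryonic stages E12.5, E13.5 and E16.5 (days after mating), labelled as separated from female gonads, and from the ovary at 6 weeks after birth (P6w). Per the study's methods, germ cells of E12.5 gonads were removed with magnetic beads against the surface antigen SSEA1, which leaves any other cell type of the gonad in place; how the other stages were depleted is not given in the sources used here. The FPKM table held 3 libraries of cells separated from E12.5 female gonads (E12.5_GC) and 3 libraries each of GSCLCs after 4, 6, 8 or 10 days in V580 (V580_D4 to V580_D10). V580 combines vitamin C (Vc) with AM580, an agonist of the retinoic acid receptor. The same table held 2 libraries each of ESC cultures after 24 h or 48 h without compound (Con), with Vc, with AM580 or with V580. All ESC cultures were female, were freed of feeder cells by adherence and were grown on fibronectin. No untreated culture accompanied days 4 to 10, so time in V580 and time in culture cannot be told apart there. The single-cell table held 1 sample of V580_D6 cells. The study reports this sequencing in triplicate, and whether the sample pools several libraries is not given in the sources used here. The labels do not say whether replicates were separate cultures or animals, so p-values measure the spread between these libraries, which may be technical.

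Hedgehog ligands are secreted proteins that bind the receptor Ptch1 on neighbouring cells. Without ligand, Ptch1 holds Smo inactive, and Gli3 is largely processed into a repressor. When ligand binds, Smo enters the primary cilium, Gli2 and Gli3 act as activators, and Gli1, Ptch1 and Hhip are transcribed, so Gli1 and Ptch1 are widely used as readouts of the pathway. In the ovary, Dhh and Ihh are known as products of granulosa cells, and cells of the surrounding stroma and theca layer carry Gli1 and Ptch1. Dhh is also the ligand of Sertoli cells in the testis.

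On GRCm38 with the GENCODE annotation, Dhh (ENSMUSG00000023000.5) lies on the minus strand at chr15:98891152-98898540. Ihh lies at chr1:74945315-74951672 and Shh at chr5:28456815-28467256, both on the minus strand. Ptch1 lies at chr13:63508328-63573598 on the minus strand and Smo at chr6:29735503-29761365 on the plus strand. Gli1 lies at chr10:127329882-127341974 and Gli2 at chr1:118834132-119053619, both on the minus strand, while Gli3 lies at chr13:15463235-15730026 on the plus strand. Hhip lies at chr8:79965851-80058006 on the minus strand. Of the 4399 exon bases of Dhh, 546 are shared with Rhebl1 on the same strand and 1107 lie opposite the antisense gene Gm49442. Counting by strand is not stated in the sources used here, so the Dhh counts are uncertain to the extent that reads of these neighbours fall there. Gli1 has 62 exon bases shared with Arhgap9 and 265 with Gm47200.

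Promoters were read for the 2 ligand genes whose levels separate the samples below, to show what the sequence before each start holds. RefSeq sequence of GRCm38.p6 was given for 7 of the 9 members (not for Shh and Gli1), and the 250 bases before the annotated start are printed 5′ to 3′ on the strand of the gene, with GC boxes (GGGCGG on either strand) in capitals. The Dhh window is chr15:98898541-98898790 and the Ihh window chr1:74951673-74951922, both on the minus strand.
Dhh: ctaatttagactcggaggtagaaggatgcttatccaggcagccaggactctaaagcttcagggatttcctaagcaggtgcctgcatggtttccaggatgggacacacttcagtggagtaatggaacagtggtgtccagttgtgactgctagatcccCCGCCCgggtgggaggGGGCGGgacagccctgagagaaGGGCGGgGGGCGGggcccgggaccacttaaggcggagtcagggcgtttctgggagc
Ihh: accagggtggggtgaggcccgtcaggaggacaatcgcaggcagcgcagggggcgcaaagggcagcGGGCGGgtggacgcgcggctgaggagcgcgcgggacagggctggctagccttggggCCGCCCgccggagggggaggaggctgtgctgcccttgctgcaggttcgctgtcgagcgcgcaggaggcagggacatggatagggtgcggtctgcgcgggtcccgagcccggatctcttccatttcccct

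The Dhh window held 4 GC boxes at a GC content of 59.6%, and the Ihh window held 2 at 72%. GC boxes were present in 6 of the 7 members with sequence (Smo had none) and in 32.7% of all 32851 promoter windows of the same length. The letters TGGGTGGTC, a Gli-binding sequence, were found in none of the 7 windows and in 0.225% of all windows. CAAGGTCA, a sequence bound by Nr5a1, was likewise in none of the 7 and in 1.33% of all windows, and TATAAA was in none and in 12.4%. AGGTCA, a half-site of the retinoic acid receptor, was in none and in 14%. These counts describe letters in 250 bases on both strands and say nothing about binding. The windows of Ptch1 and Gli3 lie within the GENCODE spans of these genes given above.

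Before the stage comparisons, the libraries were checked against their labels. The stage libraries held 12694769 to 22259044 counts. Summed levels of 4 Y-linked genes were 8.40 and 9.50 CPM (counts scaled to the total of the library) in the libraries labelled E12.5 and at most 0.254 CPM in the other 6, so the E12.5 libraries go against the label of female gonads. Every value against E12.5 below rests on them. Comparisons among E13.5, E16.5 and P6w share their spread estimate with them, and fitted on the 2 stages compared alone they called 4, 6 and 6 members, the numbers found with all libraries, though from E13.5 to P6w Hhip (-1.15, adjusted p = 0.0461, edgeR) took the place of Gli1. Lane numbers recorded with the samples place the P6w pair together with the second E16.5 library. The remaining 5 libraries lie in another lane. A summed list of 9 granulosa cell markers was 1192 to 2188 CPM in the embryonic libraries and 30810 to 31591 CPM at P6w. Red blood cell genes summed to 12716 to 13996 CPM at E12.5 and 23623 to 24912 CPM at E13.5, against 3218 to 5246 CPM at E16.5. Interstitial cell markers summed to 876 to 930 CPM at E12.5 and 834 to 866 CPM at E13.5. They reached 2865 to 3241 CPM at E16.5 and 436 to 474 CPM at P6w. Germ cell markers were 103 to 133 CPM at E16.5 and at most 27.9 CPM at the other stages. The part of these populations in the Hedgehog values was not tested. In bulk libraries such as these, fewer cells of a type and less RNA per cell cannot be told apart.

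The first comparison asked how the ligands change as the ovary forms and matures. Ihh was the ligand of the adult ovary, and Shh was almost not detected. Dhh was present in the 2 libraries labelled E12.5 and again at P6w, with low levels between. Those E12.5 libraries go against their label of female gonads. In E12.5_GC, the other E12.5 group, Dhh had 17, 10 and 16 fragments recovered from the FPKM and did not pass the filter on low values. Counts of Ihh were 2 and 11 (E12.5), 0 and 9 (E13.5), 13 and 4 (E16.5) and 930 and 1046 (P6w). As CPM scaled with TMM factors, these were at most 0.563 in every embryonic library and 76.0 and 87.1 at P6w, so the groups did not overlap. Ihh was 256-fold higher at P6w than at E12.5 (log2 fold change 8.0 ± 0.46 SE, adjusted p = 1.42e-09, edgeR quasi-likelihood test with Benjamini-Hochberg adjustment over 16398 genes). The size of this fold rests on very few counts before birth: without the first E12.5 library the log2 difference was 7.21, and without the second it was 9.67. Against E13.5 and E16.5 the log2 differences were 8.35 and 7.55. Without the first E13.5 library the former was 7.27, without the second, which left 0 counts at E13.5, no fold can be given, and without the first E16.5 library the latter was 8.34.

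Counts of Dhh were 130 and 110 (E12.5), 8 and 12 (E13.5), 14 and 8 (E16.5) and 256 and 233 (P6w). The corresponding levels were 6.02 and 5.43 CPM, 0.406 and 0.684 CPM, 0.606 and 0.490 CPM and 20.9 and 19.4 CPM. Both E12.5 libraries lay above all 4 later embryonic libraries and below both P6w libraries. Dhh fell by 3.39 on the log2 scale from E12.5 to E13.5 (SE 0.33, adjusted p = 4.16e-06, edgeR) and was 3.51-fold higher at P6w than at E12.5 (adjusted p = 1.46e-05). From E13.5 to P6w Dhh rose by 5.21 (SE 0.32, adjusted p = 2.47e-09), and by 5.22 (adjusted p = 7.03e-10) in a fit of these 2 stages alone, which holds no E12.5 library.

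Markers of Sertoli cells, the testis counterpart of granulosa cells and a known source of Dhh, moved along with the first of these differences. A list of 8 summed to 158 and 163 CPM at E12.5, 45.9 and 47.8 CPM at E13.5, 164 and 169 CPM at E16.5 and 83.0 to 170 CPM at P6w. The genes of the list did not move as one. Cst9 averaged 59.0 CPM at E12.5 and at most 4.49 CPM at any other stage, while Sox9 averaged 35.1 CPM at E12.5, 18.8 CPM at E13.5, 127 CPM at E16.5 and 1.40 CPM at P6w. Amh averaged 9.28 CPM, 0.609 CPM, 1.40 CPM and 113 CPM at these stages. The part of these cells, and of the Y-linked counts, in the fall of Dhh was not tested. Shh had 3 and 1 counts at E16.5 and 0 in the other 6 libraries, and was too low to be tested.

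**Figure D1:**
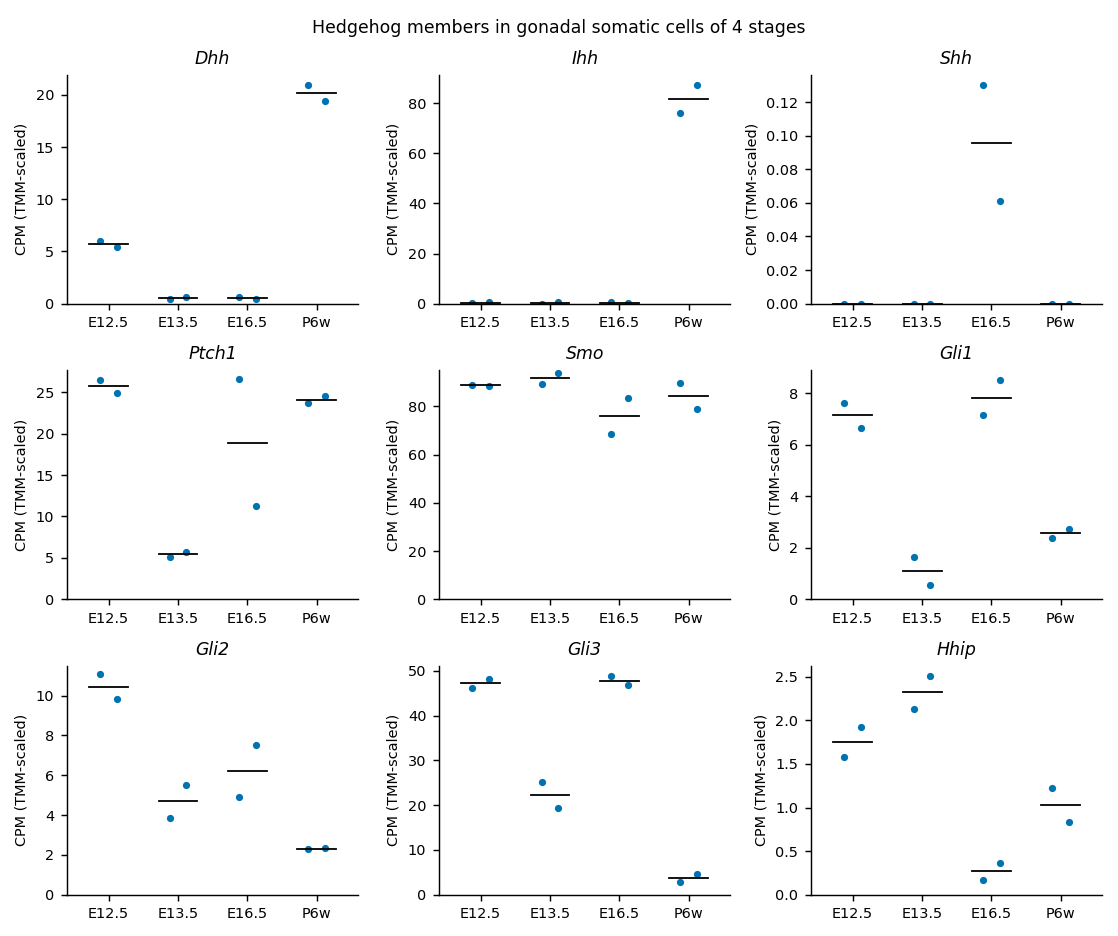
Levels of the 9 Hedgehog genes in the 8 stage libraries, 1 panel per gene, in CPM scaled with TMM factors, with 1 point per library and a black line at the mean of the 2 libraries of a stage. Ihh stands at 76.0 and 87.1 at P6w against at most 0.563 before birth, Dhh has high values at E12.5 and P6w, and Ptch1 and Gli1 dip at E13.5.

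Smo, the transducer, changed little. Its levels were 88.9 and 88.5 CPM at E12.5, 89.4 and 93.8 CPM at E13.5, 68.3 and 83.4 CPM at E16.5 and 89.6 and 78.8 CPM at P6w, and the E16.5 libraries lay below those of E12.5 and E13.5 and overlapped with P6w. The log2 difference from E12.5 to E13.5 was 0.05 (SE 0.13, adjusted p = 0.797, edgeR). No stage comparison of Smo passed the threshold of 0.05. Without the second E16.5 library it was lower at E16.5 than at E12.5 (log2 fold change -0.38, adjusted p = 0.0158, edgeR) and than at E13.5 (-0.42, adjusted p = 0.00552), and the latter also passed after removal of a length trend (-0.48, adjusted p = 0.00596) or with lane as a term (-0.42, adjusted p = 0.00512).

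Ptch1, the receptor and a target of the pathway, had 26.5 and 24.9 CPM at E12.5, 5.08 and 5.76 CPM at E13.5, 26.6 and 11.3 CPM at E16.5 and 23.7 and 24.6 CPM at P6w. E13.5 was the lowest stage in both libraries, and the 2 E16.5 libraries, which came from different lanes, differed from each other by more than those of any other stage. Ptch1 fell by 2.25 (SE 0.30, adjusted p = 3.74e-05, edgeR) from E12.5 to E13.5 and rose by 1.82 (SE 0.30, adjusted p = 0.000129) from E13.5 to E16.5. The rise was 1.06 without the first E16.5 library (adjusted p = 0.000259), and also 1.06 after removal of a trend with exon length (adjusted p = 0.00296). Its difference between P6w and E12.5 was -0.09 (SE 0.27, adjusted p = 0.796), and with sequencing lane as a term it was 1.15 (adjusted p = 0.00176). Without the first E16.5 library, Ptch1 was lower at E16.5 than at E12.5 (log2 fold change -1.19, adjusted p = 6.78e-05) and higher at P6w than at E16.5 (1.10, adjusted p = 0.000105; 1.10 with the lane term and 0.67 without the length trend, both called), where all libraries gave -0.43 (adjusted p = 0.233) and 0.33 (adjusted p = 0.318).

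Gli1, the target most often used to read the pathway, followed the same course in the embryo. Levels were 7.64 and 6.67 CPM at E12.5, 1.63 and 0.570 CPM at E13.5, 7.14 and 8.51 CPM at E16.5 and 2.37 and 2.75 CPM at P6w. Both E13.5 libraries lay below every other library, and the E12.5 and E16.5 ranges overlapped. Gli1 fell by 2.67 (SE 0.37, adjusted p = 5.16e-05, edgeR) from E12.5 to E13.5, rose by 2.80 (SE 0.37, adjusted p = 1.85e-05) to E16.5 and was lower by 1.61 at P6w than at E16.5 (log2 fold change -1.61, adjusted p = 0.0012). Without the first E13.5 library the first of these was -3.62 and the second 3.75. Gli1 was also higher at P6w than at E13.5 (1.19, adjusted p = 0.0217, and 2.13 without the first E13.5 library), a call lost without the second E13.5 library (0.62, adjusted p = 0.193), without either P6w library (adjusted p = 0.0602 and 0.105), in a fit of these 2 stages alone (adjusted p = 0.0516) and with the lane term (adjusted p = 0.186).

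Gli3, best known as the repressor, was the most abundant Gli gene in the embryo and was low in the adult. It had 46.2 and 48.3 CPM at E12.5, 25.2 and 19.4 CPM at E13.5, 48.9 and 46.8 CPM at E16.5 and 2.86 and 4.58 CPM at P6w. The P6w libraries lay below all others. Gli3 fell by 3.67 from E12.5 to P6w (SE 0.22, adjusted p = 2.23e-09, edgeR) and by 3.68 between E16.5 and P6w (log2 fold change -3.68, adjusted p = 1.91e-09).

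Gli2, the main activator, had 11.1 and 9.83 CPM at E12.5, 3.86 and 5.53 CPM at E13.5, 4.93 and 7.53 CPM at E16.5 and 2.29 and 2.33 CPM at P6w. It was highest at E12.5 and lowest at P6w, and the 2 stages between overlapped. Gli2 fell by 2.18 from E12.5 to P6w (SE 0.31, adjusted p = 2.69e-05, edgeR). Its lower level at E16.5 than at E12.5 (-0.76, adjusted p = 0.036) passed by little, and the call was lost without any one of the 2 E12.5 libraries (adjusted p = 0.187 and 0.09), the first E16.5 library (0.196) or the first P6w library (0.0513), and in DESeq2 (0.0804). The difference between P6w and E13.5 (-1.02, adjusted p = 0.0126) was likewise lost without the second E13.5 library (-0.77, adjusted p = 0.0903) and without either P6w library (adjusted p = 0.0605 and 0.0601).

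Hhip, the antagonist, was low throughout, with counts of 34 and 39 (E12.5), 42 and 44 (E13.5), 4 and 6 (E16.5) and 15 and 10 (P6w). It did not share the E13.5 dip of Gli1 and Ptch1, since the E13.5 levels of 2.13 and 2.51 CPM were the highest, and the difference from E12.5 was 0.41 (adjusted p = 0.486, edgeR). Hhip fell by 3.13 from E13.5 to E16.5 (SE 0.58, adjusted p = 0.000299). A higher level at P6w than at E16.5 (1.97, adjusted p = 0.015) was lost without the first E16.5 library (1.47, adjusted p = 0.12) or the first P6w library (1.65, adjusted p = 0.111).

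From E12.5 to E13.5, 5 of the 8 tested members changed, all downward (Dhh, Ptch1, Gli1, Gli2 and Gli3), where 45.9% of all tested genes were called in either direction and 22.1% were lower, and the median log2 fold change of the members was -1.12. Across all genes, the E13.5 to E12.5 difference ran with exon length (Spearman correlation -0.494, a description across genes). After a fitted length trend was removed, all 5 members remained called, with Ptch1 at -1.49 (adjusted p = 0.000535, edgeR), Gli2 at -0.81 (adjusted p = 0.0349) and Gli3 at -0.55 (adjusted p = 0.0216). From E12.5 to E16.5, 3 members were called, all lower (Dhh, Gli2 and Hhip), where 37.6% of genes were called and 17.1% were lower. From E13.5 to E16.5, 4 members were called (Ptch1, Gli1 and Gli3 higher, Hhip lower) against 54.1%.

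At P6w Ihh and Dhh were higher and Gli2 and Gli3 lower than at every embryonic stage. Against E12.5, 5 of 8 members were called (Ihh and Dhh higher, Gli1, Gli2 and Gli3 lower) where 52.9% of genes were. Against E13.5, 6 members were called (Ihh, Dhh, Ptch1 and Gli1 higher, Gli2 and Gli3 lower) where 59.7% of genes were. Against E16.5, 6 were called (Ihh, Dhh and Hhip higher, Gli1, Gli2 and Gli3 lower) where 56.1% were. The comparisons share libraries, so these counts are not separate pieces of evidence. Markers of theca and Leydig cells, the steroid-producing cells, summed to 71.0 and 75.5 CPM at E12.5 and to 7508 and 7618 CPM at P6w, with Cyp11a1 rising from 3.96 to 1250 CPM and Cyp17a1 from 2.42 to 174 CPM between E12.5 and P6w. The part of cell composition in the P6w differences was not tested.

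Per kb of exon, Smo led the members before birth, at 15.8 CPM per kb at E12.5, with Gli3 next at 4.93. Ptch1, Gli2, Gli1 and Dhh followed between 1.81 and 1.30, and from Gli2 downward the ranges of neighbours in that order overlapped. At P6w Ihh stood first at 26.7 CPM per kb (24.9 to 28.6 in the 2 libraries), ahead of Smo at 15.0, Dhh at 4.58 and Ptch1 at 1.70. Every Gli gene lay at or below 0.512 CPM per kb at P6w, with overlapping ranges of Gli1 and Gli3 and of Gli3 and Gli2.

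Other genes of the pathway were taken from lists by role. Between E12.5 and E13.5, of the 5 co-receptor genes, 2 fell and none rose: Gas1, a ligand-binding surface protein, from 129 to 82.1 CPM and Cdon from 28.7 to 14.6 CPM. Among 7 tested further target genes 3 fell, including the cell-cycle gene Ccnd1 (142 to 84.5 CPM) and the survival gene Bcl2 (62.5 to 26.4 CPM). Of all tested genes, 22.1% fell between these stages. For the genes of these lists no value after removal of the length trend is given. From E13.5 to E16.5, 2 of the 5 co-receptor genes rose (Gas1 to 235 and Cdon to 22.7 CPM) and 1 fell, and 4 of the 7 targets rose and 1 fell, with the Wnt antagonist Sfrp1 going from 235 to 602 CPM. In that step 28.7% of all tested genes rose and 25.4% fell. At P6w, 4 of the 5 co-receptor genes were lower than at E12.5, with Gas1 at 10.5 against 129 CPM. Of all tested genes, 27.5% were lower in that comparison. The co-receptor median was -2.23 on the log2 scale there, beside -0.04 over all tested genes.

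The second comparison followed the pathway through 10 days of V580. The main event lay between days 4 and 6, when Gli1 and Ptch1 rose together with Ihh, and Gli1 then fell while Ihh went on rising. Values are FPKM (fragments per kb of exon, scaled to the library's total), tests are limma on log2(FPKM + 1) over 11512 genes, and the added 1 understates the fold of low genes. Tables were normalised separately, so no level is compared between the stage table and this one.

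Gli1 was 1.30, 1.37 and 1.52 FPKM in E12.5_GC, 0.281, 0.380 and 0.242 FPKM at day 4, 8.44, 8.23 and 8.76 FPKM at day 6, 5.28, 6.16 and 6.15 FPKM at day 8 and 3.11, 4.34 and 3.02 FPKM at day 10. No 2 of these groups overlapped, and day 6 was the peak. From day 4 to day 6 Gli1 rose by 2.87 (SE 0.10, adjusted p = 1.78e-11, limma), and edgeR on whole fragments recovered from the FPKM gave 4.81 (SE 0.18). It fell by 0.47 to day 8 (log2 fold change -0.47, adjusted p = 0.00142) and by a further 0.62 to day 10 (-0.62, adjusted p = 0.000234), and was higher at day 6 than in E12.5_GC by 1.98 (adjusted p = 1.54e-10).

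Ptch1 was 3.35, 3.35 and 3.38 FPKM at day 4, 14.7, 14.6 and 14.5 FPKM at day 6, 10.1, 10.4 and 10.7 FPKM at day 8 and 7.0, 7.86 and 7.28 FPKM at day 10. The E12.5_GC libraries, at 3.08, 2.05 and 5.41 FPKM, spread on both sides of day 4 and lay below day 6. Ptch1 rose by 1.84 from day 4 to day 6 (SE 0.17, adjusted p = 8.33e-07, limma) and fell by 0.90 from day 6 to day 10 (-0.90, adjusted p = 0.000512). The step from day 6 to day 8 was -0.45 with an adjusted p of 0.0504, and 0.000275 without the third E12.5_GC library.

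Ihh was 0.118, 0.0839 and 0.0503 FPKM in E12.5_GC, 1.08, 1.10 and 0.766 FPKM at day 4, 3.48, 2.67 and 3.12 FPKM at day 6, 4.37, 3.88 and 3.37 FPKM at day 8 and 4.73, 4.5 and 5.75 FPKM at day 10. Day 4 lay above all E12.5_GC libraries and below all later ones, while days 6 and 8 overlapped. Ihh rose by 1.05 from day 4 to day 6 (SE 0.10, adjusted p = 1.22e-06, limma) and by 0.55 from day 6 to day 10 (adjusted p = 0.000381). In recovered fragments Ihh had 10, 6 and 3 in E12.5_GC and 321 to 388 at day 10. The day 10 to day 8 step (0.30, adjusted p = 0.0373) was lost without the third day 8 library (0.22) or the third day 10 library (0.21), and likewise without the second day 8 or first day 10 library.

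Dhh, the other ligand, did not pass the filter on low values and went the other way in fragments. It had 17, 10 and 16 fragments in E12.5_GC, 24, 31 and 23 at day 4, 1, 2 and 7 at day 6, 2, 3 and 3 at day 8 and 5, 4 and 2 at day 10. All libraries from day 6 on lay below all earlier ones. In edgeR on recovered fragments, an alternative added after the data were seen, Dhh fell by 2.86 from day 4 to day 6 (SE 0.44, adjusted p = 8.26e-05), while Ihh rose by 1.66 in the same fit (adjusted p = 1.95e-06). As a level, Dhh averaged 0.248 FPKM at day 4 and 0.0324 FPKM at day 6.

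**Figure D2:**
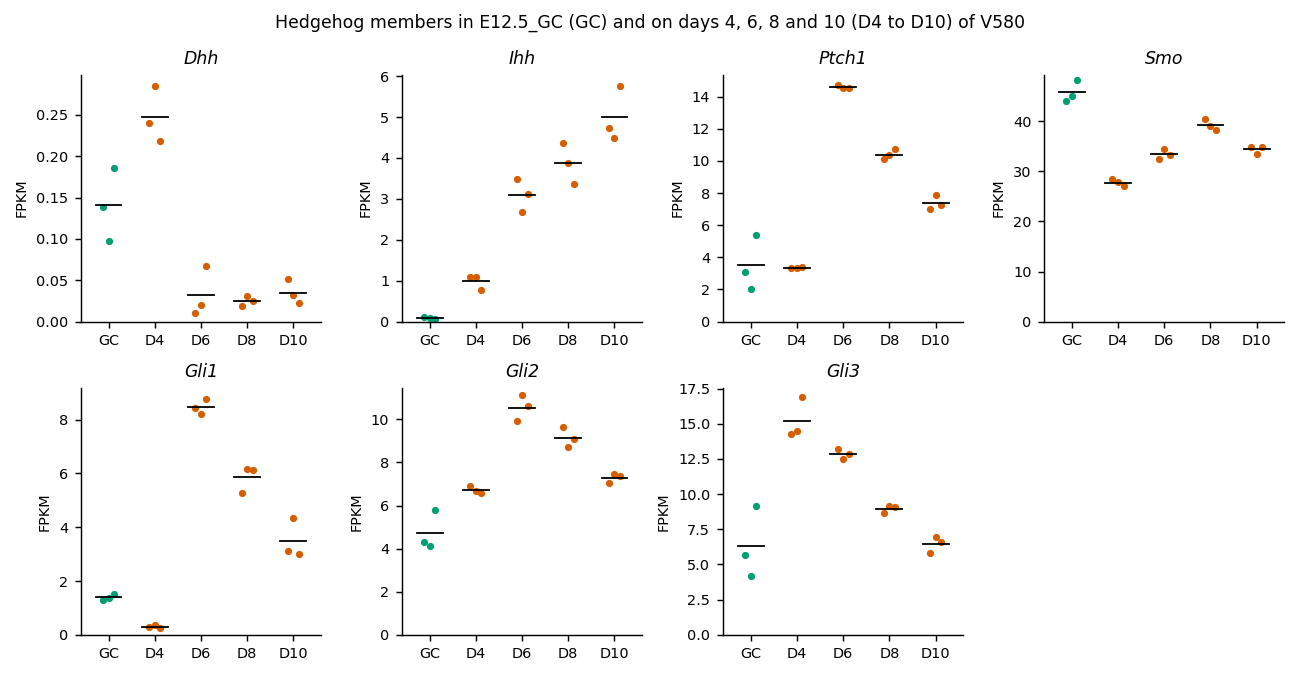
FPKM of the 7 listed Hedgehog genes in E12.5_GC and in V580 cultures at days 4, 6, 8 and 10, 1 panel per gene, with 1 point per library (3 per group) and a black line at the group mean. Gli1 and Ptch1 peak at day 6 (8.23 to 8.76 and 14.5 to 14.7 FPKM), and Ihh rises from at most 0.118 in E12.5_GC to at least 4.5 at day 10.

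Gli2 was 4.30, 4.13 and 5.78 FPKM in E12.5_GC, 6.89, 6.69 and 6.58 FPKM at day 4, 9.94, 11.1 and 10.6 FPKM at day 6, 9.65, 8.70 and 9.07 FPKM at day 8 and 7.04, 7.47 and 7.38 FPKM at day 10. It rose by 0.58 from day 4 to day 6 (adjusted p = 8.82e-05, limma) and was lower at day 10 than at day 6 (-0.48, adjusted p = 0.000347). Day 6 was thus the highest group for Gli2 as it was for Gli1 and Ptch1.

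Gli3 was highest at day 4, at 14.2, 14.5 and 16.9 FPKM, with 13.2, 12.53 and 12.8 FPKM at day 6, 8.63, 9.18 and 9.07 FPKM at day 8 and 5.78, 6.98 and 6.57 FPKM at day 10. The groups did not overlap and the order ran downward with time. Its day 6 to day 4 difference of -0.22 did not pass (adjusted p = 0.30, limma), and that from day 10 to day 6 did (-0.90, adjusted p = 0.000351). The E12.5_GC libraries spread from 4.17 to 9.12 FPKM for Gli3, and without the third one, the highest, the day 6 to day 4 difference passed (adjusted p = 0.0455). The fall from day 6 to day 8 (-0.48, adjusted p = 0.0335) was lost when any one library of day 6 or day 8 was left out (adjusted p up to 0.0896).

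Smo was again the highest member in FPKM. It was 44.1, 45.0 and 48.3 FPKM in E12.5_GC, 28.4, 27.8 and 27.0 FPKM at day 4, 32.6, 34.4 and 33.2 FPKM at day 6, 40.6, 39.0 and 38.2 FPKM at day 8 and 34.9, 33.4 and 34.8 FPKM at day 10. All culture libraries lay below all E12.5_GC libraries. Smo rose by 0.26 from day 4 to day 6 (adjusted p = 0.00125, limma) and was lower at day 6 than in E12.5_GC (-0.44, adjusted p = 3.77e-06).

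From day 4 to day 6, 5 of the 6 tested members were called, all upward, where 44.9% of all tested genes were called in either direction and 21.9% were higher. Against E12.5_GC at day 6 all 6 tested members were called, 5 higher and Smo lower, where 67% of genes were, so a call there is the common state of a gene. From day 6 to day 8, 3 members were called against 41.1% and from day 6 to day 10, 5 were called against 58%, with only Ihh of those 5 going upward. The remaining comparisons with E12.5_GC called 5 members on day 4 (71.6% of genes), 6 on day 8 (63.2%) and 5 on day 10 (69.5%). Those with day 4 called 6 members on day 8 (62.1%) and 5 on day 10 (64.5%), and the step between days 8 and 10 called 4 (34.5%).

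The rest of the pathway was counted in the same step from day 4 to day 6. All 7 tested genes of the list of further targets rose, including the cell-cycle gene Ccnd2 from 4.54 to 29.4 FPKM and Sfrp1 from 21.1 to 84.0 FPKM, and the list's median log2 difference was 1.51 beside -0.01 over all tested genes. Of the 5 co-receptor genes, 2 rose and 2 fell. Boc rose from 3.62 to 7.25 FPKM, whereas Cdon fell from 32.2 to 16 FPKM and Lrp2 from 7.97 to 3.39 FPKM. Among the 4 tested genes for ligand release, 3 rose and 1 fell. Scube1 rose from 0.687 to 2.23 FPKM and Scube3 fell from 39.3 to 20.3 FPKM. In the list of transduction genes 9 of 17 rose and 2 fell, and in the list of cilium genes 4 of 18 rose and 1 fell. Of all tested genes, 21.9% rose and 23% fell in this step.

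Marker lists moved over the same days. Between days 4 and 6, summed interstitial cell markers went from 74.4 to 85.8 FPKM up to 182 to 191 FPKM, mesothelial markers from 194 to 224 FPKM up to 316 to 328 FPKM, granulosa markers from 57.0 to 61.2 FPKM up to 126 to 131 FPKM, and pluripotency markers from 20.1 to 22.8 FPKM down to 7.05 to 8.85 FPKM. Markers of extraembryonic endoderm, a lineage that ESC cultures can form, went from 58.4 to 68.2 FPKM up to 77.6 to 85.2 FPKM. Red blood cell genes summed to 982 to 4108 FPKM in E12.5_GC and to at most 0.739 FPKM in the cultures. The part of these populations in the Hedgehog values was not tested.

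**Figure D3:**
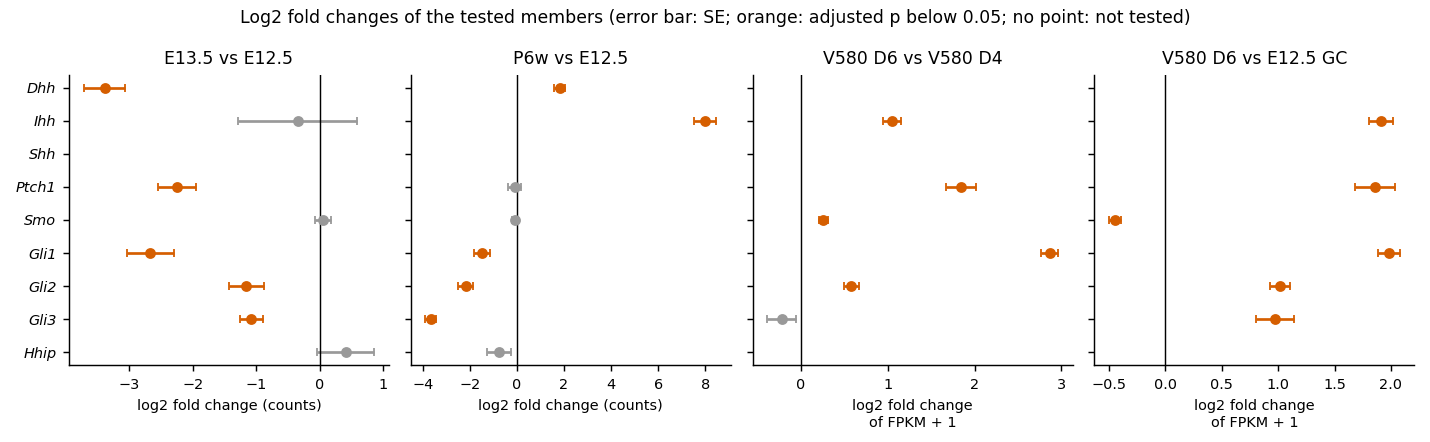
Log2 fold changes with standard errors of the tested Hedgehog genes in 4 comparisons (E13.5 against E12.5 and P6w against E12.5 by edgeR, day 6 against day 4 and day 6 against E12.5_GC by limma on FPKM + 1), with genes past the adjusted p threshold in orange and others in grey. Ptch1 and Gli1 lie at -2.25 and -2.67 from E12.5 to E13.5 and at 1.84 and 2.87 from day 4 to day 6.

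The third comparison asked what the compounds did to the pathway within 2 days. Gli1 was lower with V580 than without compound at both times, Ptch1 was lower by less, and Smo at 24 h and Gli2 at 48 h were higher. Tests were limma over 10644 genes with 2 libraries per group, and all compound comparisons at a time share the same Con libraries.

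At 24 h Gli1 was 4.42 and 4.79 FPKM in Con, 3.25 and 3.00 FPKM in Vc, 3.11 and 3.06 FPKM in AM580 and 1.90 and 1.63 FPKM in V580. The Con libraries lay highest, the V580 libraries lowest, and Vc and AM580 overlapped between them. V580 lowered Gli1 by 1.02 on the log2(FPKM + 1) scale (log2 fold change -1.02, adjusted p = 4.14e-06, limma), AM580 gave -0.46 (adjusted p = 0.00825) and Vc gave -0.44 (adjusted p = 0.0122). The Vc call was lost without the second Con library (-0.39, adjusted p = 0.0811) or the second Vc library (adjusted p = 0.0589), and the AM580 call without the second Con library (-0.41, adjusted p = 0.0731) or the second AM580 library (adjusted p = 0.054). V580 also lay below each single compound, by -0.57 against AM580 (adjusted p = 0.00217) and -0.58 against Vc (adjusted p = 0.00141). A test of whether the effect of V580 departs from the sum of the single effects called no member at 24 h, with adjusted p of 0.999 for all 5 in limma, 0 at an unadjusted p under 0.05 and 0 in edgeR on recovered fragments, where limma called 0.0376% of all genes.

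At 48 h Gli1 was 2.05 and 1.73 FPKM in Con, 1.44 and 1.56 FPKM in Vc, 1.16 and 1.42 FPKM in AM580 and 0.731 and 1.25 FPKM in V580. All treated libraries lay below both Con libraries, and V580 overlapped with AM580. V580 gave -0.55 (adjusted p = 0.000449, limma) and AM580 gave -0.34 (adjusted p = 0.0132), the latter lost without the first Con or the first AM580 library. V580 against Vc was -0.34 (adjusted p = 0.0139), and -0.15 (adjusted p = 0.238) without the first V580 library.

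Gli1 also fell with time in the untreated cultures (-0.96 from 24 h to 48 h, adjusted p = 1.36e-06, limma), as did Gli2 (-0.82), while Smo rose by 1.84, Ptch1 by 0.69 and Gli3 by 0.68. All 5 tested members were thus called between the Con groups, where 66% of genes were. Summed interstitial markers went from 124 to 134 FPKM at 24 h down to 31.7 to 33.2 FPKM at 48 h in the same cultures, and their part in these changes was not tested.

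Ptch1 was 3.59 and 3.23 FPKM in Con, 2.90 and 3.67 FPKM in Vc, 3.22 and 3.17 FPKM in AM580 and 2.58 and 2.65 FPKM in V580 at 24 h. At 48 h it was 6.15 and 6.05 FPKM, 5.44 and 5.28 FPKM, 5.66 and 5.47 FPKM and 4.48 and 4.09 FPKM in the same order. V580 was the lowest group at both times. The difference from Con was -0.29 at 24 h (adjusted p = 0.0112, limma), lost without the first Con library (adjusted p = 0.0885) or the first V580 library (adjusted p = 0.067), and -0.43 at 48 h (adjusted p = 0.000241).

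Smo was 4.51 and 4.24 FPKM in Con, 5.62 and 5.29 FPKM in AM580 and 5.61 and 5.55 FPKM in V580 at 24 h, and 16.6 to 19.4 FPKM in all groups at 48 h. It was higher with V580 by 0.29 at 24 h (adjusted p = 0.000807, limma) and with AM580 by 0.26 (adjusted p = 0.00318). At 48 h no comparison of Smo with Con passed.

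Gli2 was 4.30 and 4.28 FPKM in Con, 4.70 and 5.87 FPKM in Vc, 3.32 and 3.11 FPKM in AM580 and 4.98 and 4.81 FPKM in V580 at 24 h. At 48 h it was 2.21 and 1.80 FPKM, 3.18 and 3.27 FPKM, 2.73 and 2.79 FPKM and 3.00 and 2.81 FPKM. AM580 lay below Con at 24 h (-0.33, adjusted p = 0.0145, limma) and above it at 48 h (0.33, adjusted p = 0.00386). At 48 h Gli2 was also higher than in Con with Vc (0.49, adjusted p = 0.00137) and with V580 (0.38, adjusted p = 0.00132), and both calls held without any one library. The AM580 call at 24 h was lost without either Con library or the second AM580 library, and that at 48 h without the second Con library.

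Gli3 was 3.04 and 2.84 FPKM in Con and 4.62 and 3.74 FPKM in AM580 at 48 h, higher by 0.39 (adjusted p = 0.00355, limma), and by 0.27 (adjusted p = 0.0626) without the first AM580 library. The 2 ligands listed in the table stayed near the floor, with at most 17 fragments of Dhh and 16 of Ihh in a library, and neither passed the filter. In edgeR on recovered fragments, Ihh with AM580 at 48 h (16 and 13 fragments) differed from Con (4 and 8) by 1.36 with an adjusted p of 0.0506.

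V580 called 3 of 5 members at each time (Gli1 and Ptch1 lower, with Smo higher at 24 h and Gli2 higher at 48 h), where 29% of genes were called at 24 h and 57.1% at 48 h. AM580 also called 3 at each time, against 14.8% and 57%, and Vc called 1 at each time, against 13.6% and 12.4%. V580 differed from AM580 in 2 members at 24 h and 1 at 48 h (14.8% and 19.2% of genes) and from Vc in 3 and 2 (16.9% and 53.8%). The effects of AM580 and V580 changed between 24 h and 48 h for 2 members each (35% and 33.9% of genes), and that of Vc for 0 in limma and 0 in edgeR, with 2 at an unadjusted p under 0.05 (2.9% of genes). The effect of V580 departed from the sum at 48 h for 0 members in limma, with Gli2 nearest (-0.44, adjusted p = 0.0546, 1 member at an unadjusted p under 0.05), and for 1 in edgeR on recovered fragments (3.61% of genes in limma). Among the 4 tested further target genes, all 4 were lower with V580 at both times, with Mycn at 20.7 against 67.8 FPKM at 24 h and at 3.54 against 65.5 FPKM at 48 h, and Sfrp1 at 6.19 against 17.7 FPKM at 48 h. Of all tested genes, 15.5% were lower with V580 at 24 h and 31.2% at 48 h. With AM580 at 48 h, 3 were lower, among them Ccnd1 at 24.4 against 45.0 FPKM, and Ccnd2 was higher at 8.88 against 6.20 FPKM. Of the 5 co-receptor genes 3 were higher and 1 lower with AM580 at that time, with Gas1 at 7.21 against 2.86 FPKM and Cdon at 8.43 against 3.48 FPKM. With AM580 at 48 h, 25.7% of all tested genes were higher and 31.2% lower. Summed pluripotency markers were 571 to 582 FPKM in Con, 277 to 293 FPKM in AM580 and 279 to 283 FPKM in V580 at 48 h, and their part in these values was not tested.

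**Figure D4:**
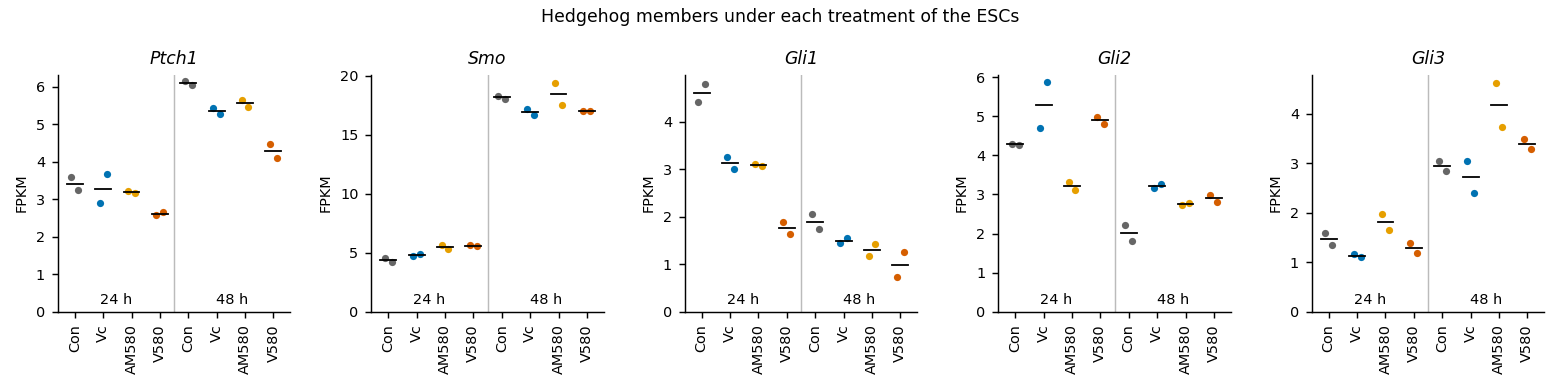
FPKM of Ptch1, Smo, Gli1, Gli2 and Gli3 in ESC cultures after 24 h and 48 h without compound (Con), with vitamin C (Vc), with AM580 or with both (V580), with 1 point per library (2 per group) and a black line at the group mean. Gli1 is highest in Con (4.42 and 4.79 at 24 h) and lowest in V580 (1.90 and 1.63), and Smo is higher in every group at 48 h than at 24 h.

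The single-cell sample placed the members in the cells of day 6. Most Ihh counts lay in one cluster, and the counts of Gli1, Ptch1, Gli2 and Gli3 were highest elsewhere. Of 15412 barcodes, 15315 passed the filters (median 9281 unique molecular identifiers, UMIs, per cell), and they were divided into 12 clusters named from fixed marker lists. With 1 sample there is no test between clusters, intervals are 95% exact ones that cover counting error only, and no doublet caller was run. Low clusters can also hold UMIs of free RNA. The members and the other Hedgehog pathway lists were left out of the genes clustered. What follows is a description.

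Ihh gave 580 UMIs in 370 cells. Cluster 6, with 925 cells, held 422 of them, a level of 18.3 CPM (16.6 to 20.1), and 26.2% of its cells had a UMI (23.4 to 29.1). CPM here is UMIs scaled to the total of the cluster. Cluster 6 was named extraembryonic endoderm-like by Cubn, Lama1, Sox17 and Dab2, which are only part of that list of 10 genes. Rbp4, Pitx1 and Fst were also among its leading genes, and Fst is on the list of granulosa cell markers. Lama1 was not particular to cluster 6, since it led cluster 9, at 19.1 per 10000 UMIs against 0.861 in all other cells. Cluster 7, unnamed and led by Cited1, S100g and Pitx1, had 12.6 CPM (9.02 to 17.1), and the mesothelial-like cluster 1 had 0.452. The median depth was 22977 UMIs per cell in cluster 6, 2363 in cluster 7 and 12087 in cluster 1, where 0.574% of cells had an Ihh UMI. At 3000 UMIs per cell, which removes differences in depth, 5.03% of cluster 6 cells, 3.87% of cluster 7 cells and 0.136% of cluster 1 cells had an Ihh UMI, with 11, 544 and 30 shallower cells left out. Pitx1 was also, with a Pearson correlation of 0.983, the gene nearest to Ihh across the 31 FPKM libraries.

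Gli1 gave 1314 UMIs, at 10.7 CPM (9.67 to 11.8) in the mesothelial-like cluster 1, 9.85 in cluster 2, led by cell-cycle genes, 13.52 (12.1 to 15.1) in the interstitial-like cluster 3 and 1.99 (1.46 to 2.65) in the Ihh-rich cluster 6. Cluster 6 thus lay below clusters 1 and 3 beyond counting error. At equal depth, 3.41% and 4.23% of cells of clusters 1 and 3 had a Gli1 UMI against 0.438% of cluster 6, where the unthinned shares were 11.7%, 17.2% and 4.43%. The unnamed cluster 4, at 18.6 CPM, is made of cells with a median of 2028 UMIs and a mitochondrial share of 15.8%.

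Ptch1, with 12169 UMIs, was at 100.2 CPM in cluster 1, 86.6 in cluster 3 and 36.1 in cluster 6. Smo was at 106, 81.5 and 36.3 in the same clusters, Gli2 at 12.7, 13.3 and 1.60 and Gli3 at 32.6, 47.5 and 5.62. All 5 genes, Gli1 included, were thus lower in the Ihh-rich cluster 6 than in the mesothelial-like and interstitial-like clusters, and by the most for Gli2, Gli3 and Gli1. Such low levels were not particular to cluster 6. Cluster 8, with Ihh at 0.923 CPM, had Ptch1 at 25.8, Smo at 15.8, Gli1 at 2.00, Gli2 at 0.615 and Gli3 at 6.92. In cluster 7 Ptch1 was at 17.2 and Smo at 12.6. Ptch1 and Smo were highest in the unnamed cluster 4, at 147 and 206. Hhip was at 2.66 and 3.19 CPM in clusters 1 and 3 and at 0.692 in cluster 6.

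Shh, which the FPKM table does not list, gave 108 UMIs, 77 of them in cluster 5, an unnamed cluster of 1047 cells led by the epithelial genes Wfdc2, Cldn3 and Epcam (4.03 CPM, 3.18 to 5.04). In that cluster 4.11% of cells had a Shh UMI, against 0 of 2963 cells in cluster 1, which by the floor of 3 counts allows up to 0.101% of its cells to hold a UMI (0.124% by the exact interval). Dhh gave 42 UMIs in 41 cells, 16 of them in cluster 5, too few to place it. Cluster 5 held Ptch1 at 60.4 and Gli3 at 34.6 CPM, while Gli1 there was 3.30.

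**Figure D5:**
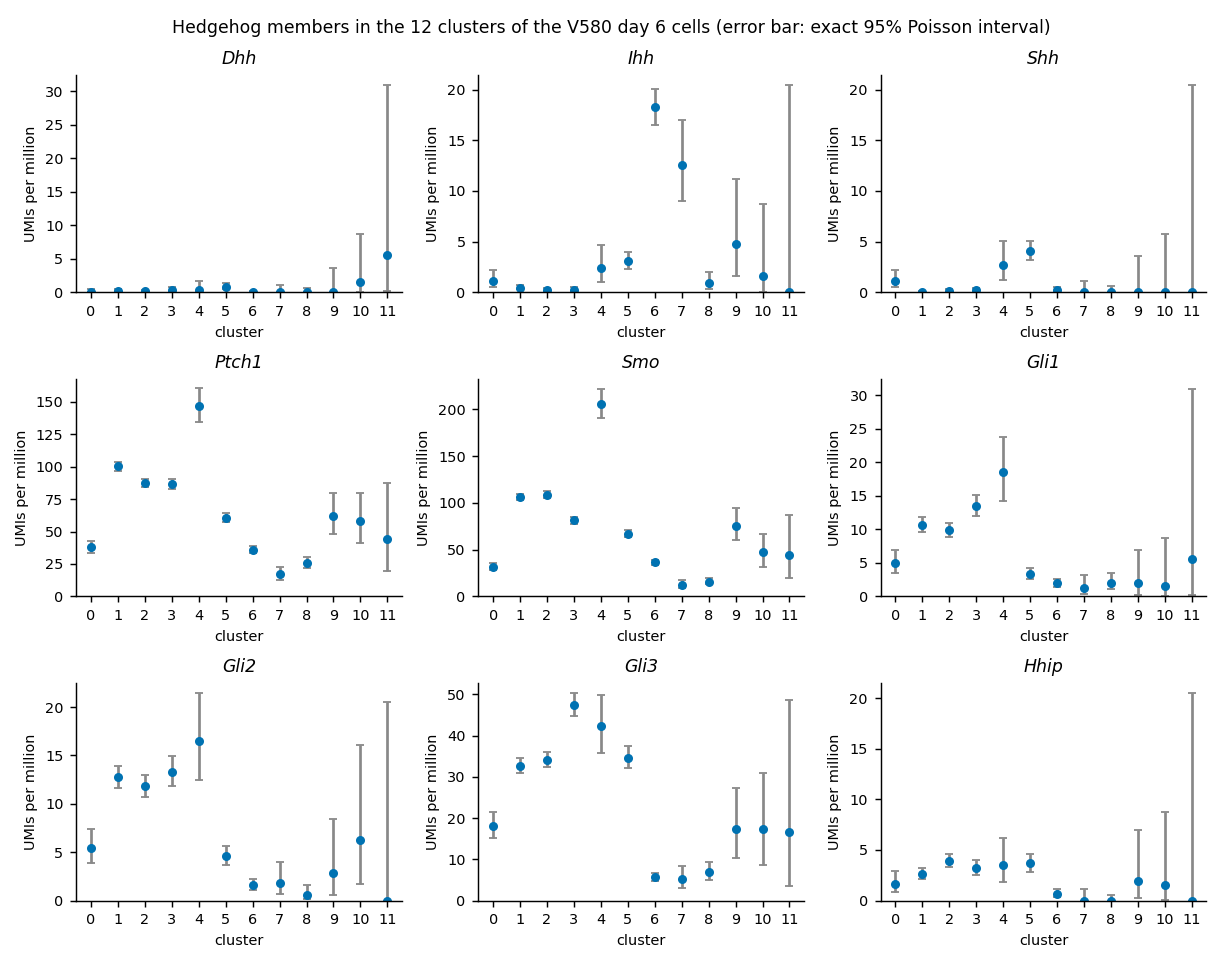
Levels (CPM, from UMIs) of the 9 Hedgehog genes in the 12 clusters of V580_D6 cells, 1 panel per gene, as points with exact 95% Poisson intervals that cover counting error only. Ihh is highest in cluster 6 (18.3) and cluster 7 (12.6), Shh in cluster 5 (4.03), and Gli1, Gli2 and Gli3 are lower in cluster 6 than in clusters 1 to 3.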

How the data were processed

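RNA was sequenced from 8 stage libraries, 31 libraries of the FPKM table and 1 10x Genomics sample, of 48 samples in the series. The other 8 samples, and 10 value columns of a further table, were not used here.

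The deposited stage table holds read counts per gene, which the authors made by aligning to mm10 with HISAT2 and counting with featureCounts. The deposited FPKM values were taken as given; which tool the authors used for FPKM is not given in the sources used here. The submitters' processing notes also name FastQC, Trim Galore, SAMtools and RSEM. The deposited single-cell counts are UMI counts that the authors made with Cell Ranger on mm10.

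Stage counts were tested with edgeR 4.0.16 (quasi-likelihood, TMM, filterByExpr, all 4 stages in 1 fit) in R 4.3.3. FPKM values were tested with limma 3.58.1 on log2(FPKM + 1), with days and 24/48 h cultures fitted separately. P-values were adjusted over all tested genes (Benjamini-Hochberg) and called under 0.05. Exon lengths gave whole fragments for 96.1% to 96.5% of values in a library (tolerance 0.05), 16800981 to 24901730 fragments each, and these were also tested with edgeR. Single cells were filtered at 200 genes and 40% mitochondrial UMIs and clustered with scanpy 1.11.5 (Leiden). The edgeR and limma fits, the recovery of fragments and the clustering were tested on simulated data.

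All 9 members were named. From each other pathway list, at most 2 higher and 2 lower called genes per comparison were named, those with the largest log2 fold change and no overlap between groups. Nearest patterns were the 3 genes with the highest Pearson correlation of log2(value + 1) among genes with a mean of at least 1. Single genes of the marker lists (such as Cst9, Amh, Cyp11a1) were picked after their values were seen. The values of 1 gene of these lists are not reported here. Members and lists were chosen with earlier results of these data known. Alternatives were DESeq2 1.42.0, other filters, pseudocounts, scalings and models, a lane term, a length trend, replicate blocks and leaving out each library.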

Additional observations from a re-analysis of the deposited data

Results flagged for a closer look

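In 4 cases a test of the difference itself found that the effect of a compound on a Hedgehog gene was not the same at 48 h as at 24 h, each against the untreated cultures of its time (limma interaction, 2 libraries per group, 5 members tested in each contrast).

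For Gli2, the transcriptional activator, the AM580 effect on log2(FPKM + 1) was -0.33 at 24 h and 0.33 at 48 h, and their difference was 0.66 (adjusted p = 0.000657). In edgeR on recovered fragments, a test chosen after seeing the data, it was 0.90 (adjusted p = 0.00019). Gli2 and Smo were the 2 members called for AM580, where 35% of all genes were.

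For Smo, the signal transducer, the AM580 effect was lower at 48 h than at 24 h by -0.25 (adjusted p = 0.0198), a call lost under quantile scaling (adjusted p = 0.0585) and, among the libraries left out in turn, without the second Con or first AM580 library of 24 h or the first Con or second AM580 library of 48 h.

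The V580 effect on Smo was lower at 48 h by -0.38 (adjusted p = 0.00128), and for Gli1 the V580 effect was smaller at 48 h, with a difference of 0.47 (adjusted p = 0.0237). The Gli1 call was lost with a pseudocount of 0.1 (adjusted p = 0.205), in edgeR (adjusted p = 0.15) and without the second V580 library of 48 h (0.28, adjusted p = 0.123), and also without the second library of Con at either time or of V580 at 24 h. Both were called where 33.9% of all genes were.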

How the results depend on the processing

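Over single-gene results under the alternatives, 3601 were counted as kept, 92 lost the call and 60 gained it. A change of sign with no call in either fit was counted as kept. So were single-cell levels inside the counting interval of the main setting. Ptch1 at P6w against E12.5 changed sign and was called with a lane term (1.15, adjusted p = 0.00176, edgeR), where 1 stage alone had libraries in both lanes; the cause was not tested. Calls summed over comparisons were 29 for the stages (25 to 32 without 1 library), 50 for the days (47 to 58) and 31 for the treatments (26 to 33).

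A minimum of 2-fold lowered the day total to 19, which left against E12.5_GC 1 member on day 4, 4 on day 6, 3 on day 8 and 1 on day 10, 3 in each comparison with day 4, 0 from day 6 to day 8, 1 from day 6 to day 10 and 0 from day 8 to day 10, where 1.29% to 20.4% of all genes passed. It lowered the treatment total to 2, with 1 between the Con times, 1 for V580 at 24 h and 0 in every other treatment comparison, where at most 7.72% of all genes passed. A stricter minimum leaves fewer calls by construction.

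With 1 model of 31 libraries, 5 members were called from day 6 to day 8, 1 for V580 against Vc and 0 for V580 against AM580 at 48 h. A pseudocount of 0.1 gave 0 for Vc at 24 h, 1 for the V580 change with time and 1 for Vc with AM580 at 48 h. Recovered fragments, chosen after seeing the data, gave 4 for V580 against AM580 at 24 h and 1 for each of the last 2. Without a filter AM580 at 48 h had 5. Quantile scaling, and for V580 also the single model, left 1 member for each compound's change with time.

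Leaving out 1 library gave 2 to 6 calls from day 6 to day 8 and from day 8 to day 10, 0 to 2 for Vc at 24 h and for V580 against AM580 at 48 h, 1 to 3 for AM580 at either time and for V580 against Vc at either time, 1 to 2 for both changes with time and 0 to 1 for Vc with AM580 at 48 h.

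Replicate numbers were not treated as pairs in the main fits. Correlations of same-numbered libraries ran from -0.04 to 0.07 (stages), -0.43 to 0.39 (days) and -0.42 to 0.21 (treatments). Their medians were 0.006, 0.028 and 0.016, against -0.006, -0.008 and -0.016 for libraries with other numbers. With a replicate block the totals were 29, 50 and 33, and V580 against AM580 at 48 h had 2.

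At a clustering resolution of 1.0, the highest cluster level rose to 52.3 CPM for Gli3 and 6.34 for Hhip. Depth limited Shh and Hhip in the stage table and Dhh and Ihh in the short cultures, where a change of a few reads decides a fold.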

Other observations

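The genes whose levels ran nearest to each member were listed by Pearson correlation, a description over libraries that share groups and depth. Over the 8 stage libraries and 14451 genes, Slc23a3 was nearest to Ihh (0.998), Nipal1 to Dhh (0.992), Cdc73 to Ptch1 (0.993), Wac to Gli1 (0.994), Gxylt2 to Gli3 (0.998), Micall1 to Gli2 (0.986), Rtkn to Hhip (0.994) and Six5 to Smo (0.978). Over the 31 FPKM libraries and 10848 genes, Ihh was followed by Pitx1 (0.983), Adamts15 (0.981) and S100g (0.979), and Gli1 had its nearest gene, Lhfp, at 0.890. With groups this few, many genes reach such values.

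Several other genes of the pathway changed in the cultures. Scube3, which helps release Hedgehog ligands from cells, was higher with AM580 than in Con, at 5.35 against 2.04 FPKM at 24 h and 9.44 against 2.53 FPKM at 48 h. In the Con cultures Gas1 was higher at 48 h than at 24 h (2.86 against 0.804 FPKM). Between days 6 and 10 of V580, 2 of 5 co-receptor genes rose (Boc from 7.25 to 32.1 FPKM and Cdon from 16 to 31.4 FPKM) and 2 fell, among them Lrp2 from 3.39 to 1.81 FPKM. Of 7 further targets 3 rose, among them Sfrp1 from 84.0 to 131 FPKM, and 3 fell, among them Ccnd1 from 19.4 to 10.8 FPKM and Mycn from 49.1 to 29.2 FPKM. Of all tested genes, 28.9% rose and 29.2% fell between these days.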
